A study of Mus musculus with 6 samples.

Results

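The genes described here encode proteins of milk and of the membrane around milk fat globules. They were taken by name: the caseins Csn1s1, Csn1s2a, Csn2 and Csn3, the whey acidic protein Wap, the mucin-like glycoprotein Glycam1, the transcription factor Elf5, and the fat globule genes Xdh, Btn1a1 and Mfge8. Every probe set annotated to one of these names alone was kept, which gave 19 probe sets for 10 genes, out of 45037 probe sets and 18193 genes measured. The rule that picks them uses their names and no expression value, but the names were chosen with earlier results of these data known.

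RNA came from sorted epidermal basal cells of female C57BL/6 mice, and each of 3 groups was measured on 2 Affymetrix mouse arrays. Virgin ventral cells were from belly skin of mice that had not been pregnant. The 16 dpc dorsal and 16 dpc ventral cells were from back and belly skin in pregnancy, 16 days post coitum (dpc). The labels give an age of 10 weeks for every sample and the design text gives 8 to 12 weeks, and no transgene or drug is named for any group. Cells were sorted for surface α6-integrin, the integrin that ties basal keratinocytes to the basement membrane, and against propidium iodide, which enters dead cells. Before the sort, the fat beneath the skin was scraped off and the dermis taken away after cold trypsin. Basal cells of mammary ducts also carry α6-integrin, and the sort names no marker against them. For tissue sections, though it is not said of the sorted cells, the study took skin from the middle of the abdomen, away from the mammary glands. Back skin of virgin mice is not analysed here, and the pregnancy difference therefore has no dorsal counterpart. The labels do not say that replicates were separate animals, so p-values measure only the spread between these arrays.

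In pregnancy, the alveolar cells of the mammary gland start to make milk proteins under prolactin, which acts through the kinase JAK2 and the transcription factor STAT5, together with glucocorticoids and with Elf5. Caseins assemble into micelles that carry calcium phosphate, Wap is a whey protein of rodents, and Glycam1 is a secreted mucin-like protein of milk and of lymph node vessels. Xanthine dehydrogenase (Xdh) and butyrophilin (Btn1a1) lie in the membrane that wraps a fat droplet as it leaves the cell, and Mfge8 (lactadherin) binds phosphatidylserine on that membrane and on dying cells. Xdh and Mfge8 also serve other tissues, Xdh in purine breakdown.

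The stretch of DNA before the transcription start is shown for 4 of these genes, because STAT5 acts there in mammary cells and because their signals followed the common milk profile of the 6 arrays most closely. That profile is a mean that includes these 4 genes, so their closeness to it is partly built in. RefSeq (GRCm38.p6) promoters were found for 7 of the 10 genes (8 promoters, since Elf5 has 2), and Csn3, Xdh and Btn1a1 had no entry. The 250 bases before each start were searched on both strands for TTCNNNGAA, the form STAT5 prefers, for TTCNNNNGAA, a longer STAT form, and for TATAAA. Letters in capitals mark matches to either STAT form, which do not overlap each other, and each sequence runs 5′ to 3′ on the strand of its gene. The promoters are Csn1s1 at chr5:87665958-87666207 (plus strand), Csn2 at chr5:87699426-87699675 (minus strand), Glycam1 at chr15:103565082-103565331 (minus strand) and Csn1s2a at chr5:87774200-87774449 (plus strand).
Csn1s1: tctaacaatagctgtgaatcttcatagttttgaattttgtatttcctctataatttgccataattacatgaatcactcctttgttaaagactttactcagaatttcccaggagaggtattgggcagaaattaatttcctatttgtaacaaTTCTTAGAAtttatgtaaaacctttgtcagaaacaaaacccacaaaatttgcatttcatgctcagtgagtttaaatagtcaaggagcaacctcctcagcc
Csn2: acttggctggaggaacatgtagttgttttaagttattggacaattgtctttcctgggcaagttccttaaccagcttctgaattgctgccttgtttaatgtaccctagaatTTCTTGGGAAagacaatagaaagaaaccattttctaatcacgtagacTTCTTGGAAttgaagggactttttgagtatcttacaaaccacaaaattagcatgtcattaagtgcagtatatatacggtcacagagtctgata
Glycam1: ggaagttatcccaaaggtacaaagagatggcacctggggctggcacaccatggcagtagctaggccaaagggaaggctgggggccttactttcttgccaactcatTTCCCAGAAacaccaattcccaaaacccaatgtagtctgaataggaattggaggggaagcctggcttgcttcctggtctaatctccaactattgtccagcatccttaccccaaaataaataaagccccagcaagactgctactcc
Csn1s2a: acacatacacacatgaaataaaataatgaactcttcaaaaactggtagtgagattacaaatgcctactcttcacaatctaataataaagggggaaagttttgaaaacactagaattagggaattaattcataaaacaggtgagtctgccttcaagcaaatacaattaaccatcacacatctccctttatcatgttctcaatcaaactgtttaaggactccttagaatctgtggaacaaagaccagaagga
TTCNNNGAA was found in 3 of the 8 promoters, as TTCTTAGAA from base 100 to base 92 before the start of Csn1s1, as TTCTTGGAA from base 93 to base 85 before Csn2, and as TTCCCAGAA from base 145 to base 137 before Glycam1. Of 32851 mouse promoters of this length, 7.02% held it. TTCNNNNGAA was found in 1 of the 8, as TTCTTGGGAA from base 140 to base 131 before Csn2, against 5.85% of all promoters. TATAAA was found in 0 of the 8, against 12.4% of all. The windows of Csn1s2a, Wap, Elf5 and Mfge8 held none of these letters. A match describes the sequence and is not a measured binding site.

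Each probe set has a signal in arbitrary units and a detection call of present, marginal or absent, which sets probes that match the transcript against probes with a central mismatch. Differences are between arrays for the same probe set. Signals of different probe sets were ranked only to choose which genes to name, and summed over a marker list only to compare arrays. Present calls covered 47.2% to 53.3% of 45101 probe sets per array, median signals were 61.1 to 78.9, and a present call was given down to a signal of 6.34 to 11.3. With 2 arrays a group, the precision of each value is limited. Where no array of a group gave a present call, a fold is printed as "at least", taken against the probe set's own signal on that array or, if higher, the lowest signal called present there. That lowest signal is over all probe sets of an array and is not the detection limit of a given probe set, so such folds depend on it. The sorted population fitted its label: the 7 basal keratinocyte markers, among them Krt5, Krt14 and Col17a1, were present on all 6 arrays.

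All 10 genes were called present by at least 1 probe set on the first 16 dpc ventral array, and 7 on the second. Present genes numbered 5 and 4 on the virgin ventral arrays and 6 and 5 on the 16 dpc dorsal arrays. The share of all genes present by any of their probe sets was not computed, so how usual these counts are is not known. On the second virgin ventral array Csn1s2a counted only through the dim probe set 1438694_at (22.9), while its brightest was absent. Of the 15 probe sets called present on any array, 14 had their highest signal on the first 16 dpc ventral array, where 12.2% of all 27744 such probe sets did. Of the 14, 4 (Glycam1, Elf5 1419555_at, Csn1s2a 1436488_at and Btn1a1 1425754_a_at) were present on that array alone, and so were counted only through the array where they were high. The remaining probe set, Btn1a1 1419175_a_at, was highest on the second 16 dpc ventral array, as were 15.9% of all. In bulk RNA, a different number of cells of a type and a different amount of RNA per cell cannot be told apart.

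**Figure D1:**
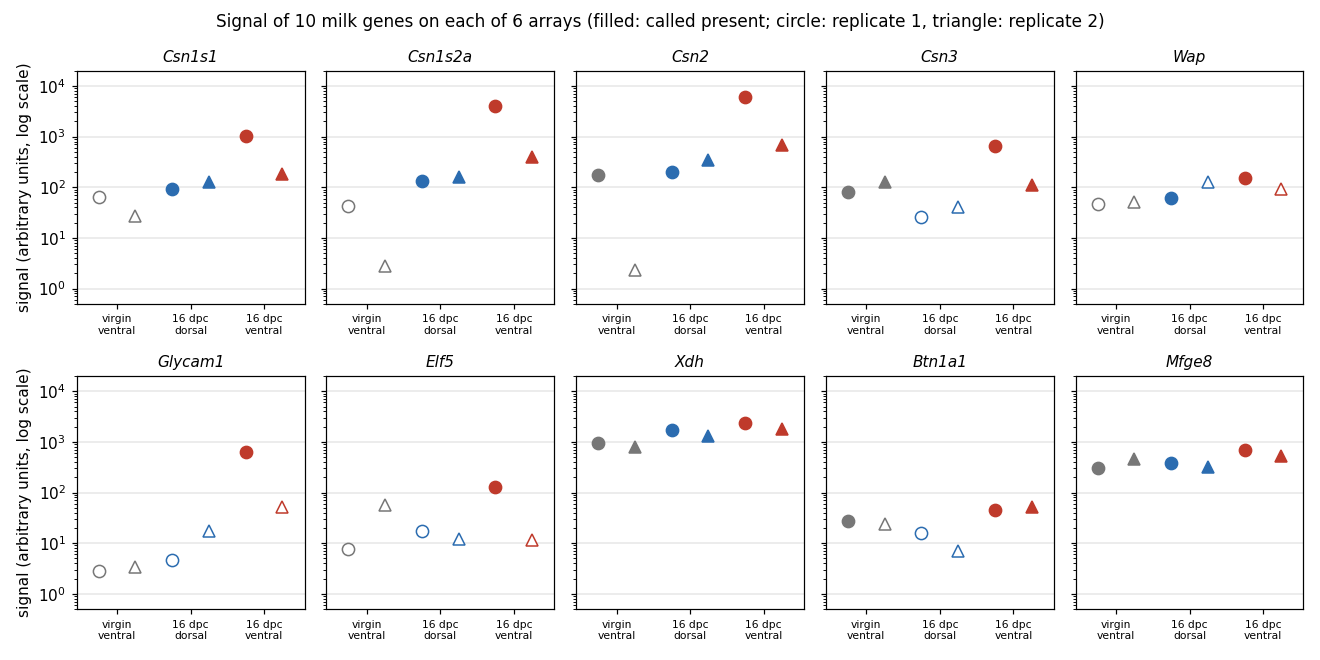
Signal (arbitrary units, log scale) of the brightest probe set of each of the 10 genes on each of the 6 arrays, with filled symbols for present calls, open symbols for marginal or absent calls, circles for replicate 1 and triangles for replicate 2. The caseins and Glycam1 stand far higher on the first 16 dpc ventral array than on any other, whereas Xdh and Mfge8 are present on all 6 and differ little between replicates.

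The mean casein signals were highest in 16 dpc ventral cells, mostly through the first of its 2 arrays. Csn2 (β-casein) probe set 1420369_a_at read 172 and 2.29 on the virgin ventral arrays, the second absent, 204 and 348 on the 16 dpc dorsal arrays, and 6185 and 699 on the 16 dpc ventral arrays. Both 16 dpc ventral signals were above all 4 others, and the mean ± SD of 2 arrays was 86.9 ± 119.7 for virgin ventral, 276 ± 101 for 16 dpc dorsal and 3442 ± 3879 for 16 dpc ventral cells. Over 16 dpc dorsal cells the Csn2 signal was 30.3-fold higher in replicate 1 and 2.01-fold higher in replicate 2. Over virgin ventral cells it was 36-fold higher in replicate 1 and at least 110-fold higher in replicate 2. The labels give no shared origin for same-numbered virgin and 16 dpc ventral arrays, so other pairings are equally possible. The closest arrays of these groups read 699 (second 16 dpc ventral) and 172 (first virgin ventral). The second Csn2 probe set, 1420370_s_at, whose suffix marks probes that other transcripts may share, was absent on the virgin ventral arrays (65.0 and 30.2) and the 16 dpc dorsal arrays (56.2 and 88.4) and present at 1652 and 137 in 16 dpc ventral cells. The pair of Csn2 probe sets thus gave the same order of the 16 dpc ventral arrays, replicate 1 being 8.85-fold and 12-fold above replicate 2. Over virgin ventral cells, 1420370_s_at gave only at least 25.4-fold in replicate 1 and at least 4.54-fold in replicate 2.

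Csn1s2a (αs2-casein A) had 5 probe sets, of which 1436170_a_at and 1420633_a_at were present on both arrays of the pregnant groups. Probe set 1436170_a_at read 43.3 and 2.73 in virgin ventral cells, both absent, 133 and 161 in 16 dpc dorsal cells and 4070.1 and 397 in 16 dpc ventral cells. On 1420633_a_at the signals were 46.6 and 1.29, both absent, then 55.4 and 73.2, then 2311 and 258. For both probe sets the 3 groups did not overlap, with 16 dpc ventral above 16 dpc dorsal and 16 dpc dorsal above virgin ventral. Against 16 dpc dorsal cells, 1436170_a_at was 30.7-fold higher in replicate 1 and 2.47-fold higher in replicate 2, and against virgin ventral cells at least 94-fold and at least 62.7-fold. The closest arrays of the ventral groups, 397 (second 16 dpc ventral) and 43.3 (first virgin ventral, absent), are not paired in these folds. The remaining 3 probe sets were dim: 1436488_at was present only on the first 16 dpc ventral array (49.2), 1438694_at on that array (30.5) and on the second virgin ventral array (22.9), and 1455579_at on none.

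Csn1s1 (αs1-casein), measured by 1420627_a_at, followed the same order at lower folds. It read 64.6 (marginal) and 26.5 (absent) in virgin ventral cells, 94.2 and 125 in 16 dpc dorsal cells, and 1031 and 186 in 16 dpc ventral cells. The groups did not overlap, and the 16 dpc ventral signal exceeded the 16 dpc dorsal signal 10.9-fold in replicate 1 and 1.49-fold in replicate 2. Over virgin ventral cells the bound was at least 16-fold in replicate 1 and at least 7.03-fold in replicate 2.

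Csn3 (κ-casein, which sits on the surface of casein micelles) was the casein with a probe set present on both virgin ventral arrays. On 1419735_at it read 79.4 and 129 in virgin ventral cells, 26.3 and 39.9 (both absent) in 16 dpc dorsal cells, and 646 and 112 in 16 dpc ventral cells. The virgin and 16 dpc ventral groups overlapped: the ratio was 8.14 in replicate 1 and 0.873 in replicate 2. The 16 dpc dorsal signal was at least 3.12-fold lower than the virgin ventral signal, and 16 dpc ventral was at least 24.6-fold above 16 dpc dorsal in replicate 1 and at least 2.81-fold in replicate 2. Its other probe set, 1451851_a_at, was absent on all 6 arrays.

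The casein genes lie close together on chromosome 5. In RefSeq order the stretch runs Sult1e1, Csn1s1, Csn2, Csn1s2a, Csn1s2b, Prr27, Odam, BC037156, Csn3, Cabs1 and Smr3a. BC037156 had no probe set naming it alone, and the 6 other genes here that are not described above were not called present on any array. Among them is Csn1s2b, a casein gene that stands between Csn1s2a and Csn3 and read between 0.98 and 15.2.

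Wap and Glycam1 were present in 16 dpc ventral cells on the first array only. Wap (1448386_a_at) read 46.5 and 50.3 in virgin ventral cells, both absent, 62.7 (present) and 129.7 (marginal) in 16 dpc dorsal cells, and 151 (present) and 91.9 (absent) in 16 dpc ventral cells. The pregnant groups overlapped, with a fold of 1.31 between the group means, and 16 dpc ventral was at least 2.43-fold above virgin ventral. Glycam1 (1424825_a_at) was absent on all other arrays, at 2.83 and 3.32 in virgin ventral cells, 4.62 and 17.6 in 16 dpc dorsal cells and 51.0 on the second 16 dpc ventral array, and read 640.5 on the first. Within replicate 1 that was at least 98.1-fold above virgin ventral and at least 91.9-fold above 16 dpc dorsal, and within replicate 2 no fold can be given.

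Elf5, an ETS-family factor needed for alveolar cells to form, also had a present call on the first 16 dpc ventral array alone. Its probe set 1419555_at read 7.69 and 57.9 in virgin ventral cells, 17.0 and 12.0 in 16 dpc dorsal cells, and 129 and 11.6 in 16 dpc ventral cells. The second 16 dpc ventral array was lower than the second virgin ventral array, with both calls absent. Within replicate 1, Elf5 was at least 16.8-fold above virgin ventral and at least 7.59-fold above 16 dpc dorsal. Probe set 1419556_at was absent on all 6 arrays.

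For the fat globule genes Xdh, Mfge8 and, on its brightest probe set, Btn1a1, the 16 dpc ventral replicates lay close together. Xdh (1451006_at) was present on every array, at 958 and 808 in virgin ventral cells, 1687 and 1283 in 16 dpc dorsal cells and 2346 and 1831 in 16 dpc ventral cells, or 883 ± 106, 1485 ± 286 and 2088 ± 364 (mean ± SD, n = 2 each). No group overlapped another. Xdh in 16 dpc ventral cells was 2.45-fold and 2.26-fold above virgin ventral cells in replicates 1 and 2, and 1.39-fold and 1.43-fold above 16 dpc dorsal cells. Its log2 fold change over virgin ventral cells was 1.24 ± 0.21 (SE), with limma's adjusted p = 0.305.

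Mfge8 (1420911_a_at) was likewise present throughout, at 303 and 454 in virgin ventral cells, 388 and 323 in 16 dpc dorsal cells and 689.9 and 537 in 16 dpc ventral cells. Both 16 dpc ventral signals were above the 4 others, while the remaining groups overlapped. The ratio of 16 dpc ventral to 16 dpc dorsal was 1.78 in replicate 1 and 1.67 in replicate 2, and that to virgin ventral was 2.28 and 1.18. Mfge8 had a log2 fold change over virgin ventral cells of 0.72 ± 0.27 (SE), with limma's adjusted p = 0.549.

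Btn1a1 (1419175_a_at) was dim, at 28.0 (present) and 23.5 (absent) in virgin ventral cells, 16.0 and 7.07 (both absent) in 16 dpc dorsal cells and 45.4 and 52.4 (both present) in 16 dpc ventral cells. No group overlapped another, and 16 dpc dorsal was the lowest. The 16 dpc ventral signal was 1.62-fold above virgin ventral in replicate 1 and at least 2.22-fold above it in replicate 2. Of its other probe sets, 1425754_a_at was present only on the first 16 dpc ventral array (18.1) and 1451824_at on none.

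**Figure D2:**
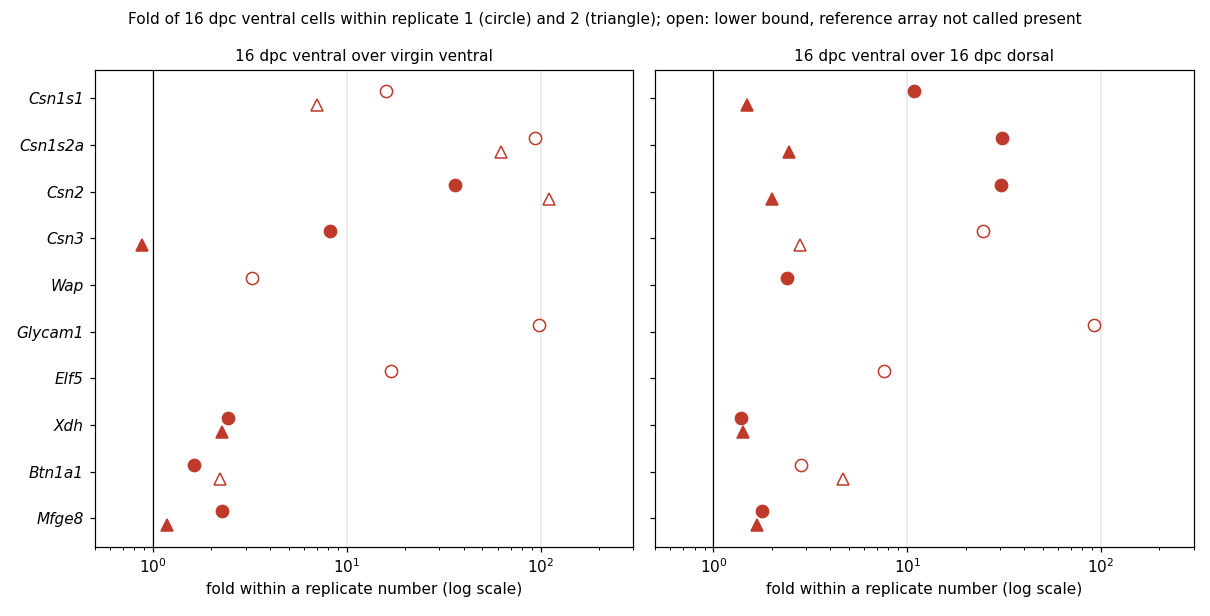
Fold of the 16 dpc ventral signal over virgin ventral (left) and 16 dpc dorsal (right) cells for the brightest probe set of each gene, taken within replicate 1 (circles) and replicate 2 (triangles) on a log axis, where open symbols are lower bounds and a missing symbol means that no fold could be given. Over 16 dpc dorsal cells, Csn2 was 30.3-fold higher in replicate 1 and 2.01-fold in replicate 2, while the replicates of Xdh (1.39 and 1.43) and Mfge8 (1.78 and 1.67) nearly coincide.

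The arrays of the 16 dpc ventral group differed from each other by more than 4-fold in 8 of 15 probe sets with a present call on either, and replicate 1 was the higher in each. These were Csn1s1 (5.53-fold), Csn1s2a (8.97-fold and 10.3-fold), Csn2 (8.85-fold and 12-fold), Csn3 (5.75-fold), Glycam1 (at least 12.6-fold) and Elf5 (at least 11.2-fold). Of all 25014 probe sets with a present call on either array, 1.82% were over 4-fold higher on replicate 1 and 0.3% on replicate 2. Arrays were taken singly because these were known to differ, so the count describes that difference and is no separate support for it. Glycam1 and Elf5 were counted only through their present call on replicate 1, where they were high. Xdh and Mfge8 were each 1.28-fold higher on replicate 1, and Btn1a1 had a ratio of 0.868.

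In the other groups, milk probe sets over 4-fold apart were 0 of 7 between the 16 dpc dorsal arrays, where the share of all probe sets was 1.47% with replicate 1 higher and 0.549% with replicate 2 higher. Between the virgin ventral arrays they were 1 of 6, namely Csn2 1420369_a_at, at least 27.1-fold higher on replicate 1, against shares of 0.379% and 0.818%. With 1 array against 1, these folds have no test.

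**Figure D3:**
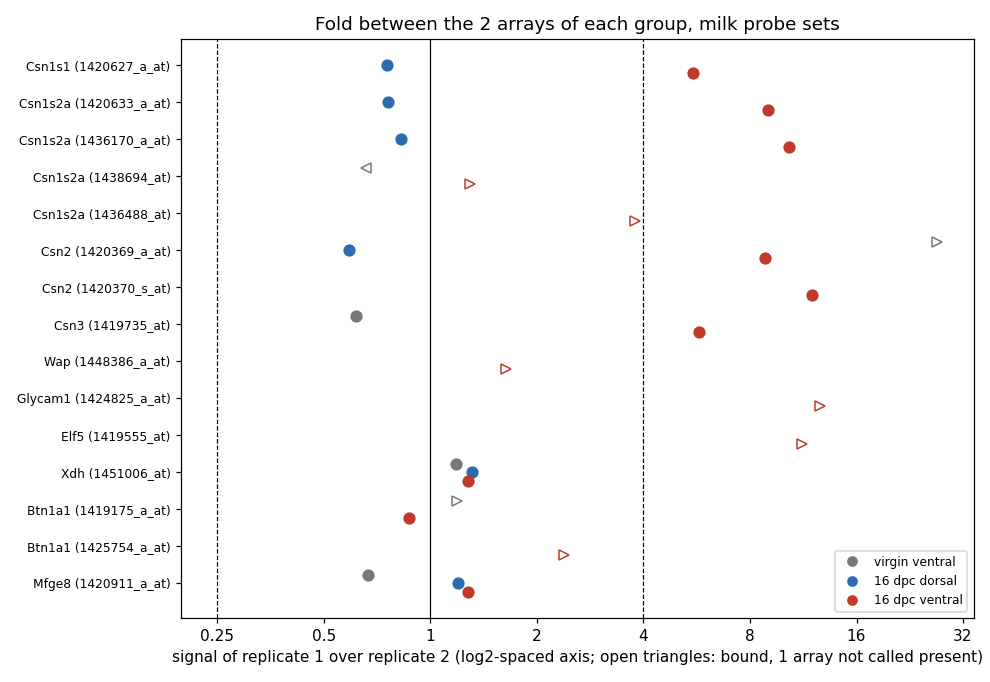
Signal of replicate 1 over replicate 2 within each group (log2-spaced axis) for the 15 milk probe sets present on any array, with grey for virgin ventral, blue for 16 dpc dorsal and red for 16 dpc ventral, open triangles for bounds and broken lines at 4-fold either way. In red, 8 probe sets lie beyond 4-fold to the right, from 5.53 to at least 12.6, and none to the left, while all blue points lie inside the lines.

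Measures of RNA quality also differed between the 16 dpc ventral arrays. The ratio of 3′ to 5′ signal of the actin control, which rises as RNA is shorter, was 1.78 on the first and 3.90 on the second, and that of the GAPDH control 1.61 and 2.86. Between the 16 dpc dorsal arrays the actin ratio was 2.04 and 4.47, and the GAPDH ratio 1.885 and 2.83. There the ratio of replicate 1 to replicate 2 was 0.752 for Csn1s1, 0.825 for Csn1s2a 1436170_a_at and 0.588 for Csn2. In virgin ventral cells the actin ratios were 2.46 and 2.15. The part of RNA quality in the 16 dpc ventral difference was not tested.

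Across all probe sets, limma called 0 of the 9 milk probe sets tested in any comparison. The remaining 10 of 19 were not present on both arrays of any group. In 16 dpc ventral over virgin ventral cells 0% of 23017 probe sets were called in either direction, with 2066 at an unadjusted p under 0.05. In 16 dpc ventral over 16 dpc dorsal cells 0.00434% were called upward and 0% downward, with 777 at an unadjusted p under 0.05. The called probe set, 1448029_at, belongs to Tbx3, a T-box factor of skin and early mammary development. In 16 dpc dorsal over virgin ventral cells 0% were called, with 1480 at an unadjusted p under 0.05.

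Adjusted p-values (limma) of the milk probe sets over virgin ventral cells ran from 0.305 for Xdh to 0.641 for Btn1a1, and over 16 dpc dorsal cells were 1 for all 9. The largest fitted differences had the largest errors. The fitted log2 fold change over virgin ventral cells was 6.87 ± 1.41 (SE) for Csn1s2a 1436170_a_at, 3.40 ± 0.80 for Csn1s1 and 6.71 ± 1.88 for Csn2 1420369_a_at. Neither virgin array called these probe sets of Csn1s2a and Csn1s1 present, and 1 of 2 called that of Csn2 present. The size of these fitted values therefore depends on levels that were not measured. The bounds were at least 76.7-fold for Csn1s2a and at least 10.6-fold for Csn1s1. That of Csn1s2a rests on the lowest present signal of the second virgin ventral array. With signals under 16 set to 16, its fitted log2 fold change was 5.59 (1436170_a_at), a smaller fold than 76.7. Leaving out 1 array moved the fitted values widely: Csn2 ran from 3.60 without virgin ventral replicate 2 to 9.82 without virgin ventral replicate 1, Csn1s2a from 4.88 to 8.86 without the same arrays, and Csn1s1 from 2.17 without 16 dpc ventral replicate 1 to 4.64 without 16 dpc ventral replicate 2. The log2 fold change of Csn3 was 1.41 ± 0.78, and 0.15 without 16 dpc ventral replicate 1.

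Counting arrays without overlap, 8 of the 9 tested milk probe sets were higher on both 16 dpc ventral arrays than on both virgin ventral arrays, as were 20.2% of all probe sets tested, and Csn3 was the exception. All 9 were higher than on both 16 dpc dorsal arrays, where the share of all was 12.2%. In these counts, signals under the lowest present signal of their array were raised to it. Over all 19 probe sets, absent calls included, 14 were then above both virgin ventral arrays and 12 above both 16 dpc dorsal arrays, with 1 below in each. Some absent probe sets entered only through that step. Elf5 1419556_at read 17.5 and 3.36 in 16 dpc ventral and 5.17 and 3.40 in virgin ventral cells. Btn1a1 1451824_at, counted below 16 dpc dorsal, read 3.97 and 1.34 against 10.2 and 1.03. For these counts over all 19, the matching share of all probe sets, tested or not, was not computed. How usual they are is therefore not known. All 9 were present on both 16 dpc ventral arrays, which is enough to enter the test, so the counts describe them and do not test the genes as a group. Between the other groups, 5 of the 9 (Csn1s1, Csn1s2a on both probe sets, Csn2 1420369_a_at and Xdh) were higher on both 16 dpc dorsal arrays than on both virgin ventral arrays (20.6% of all) and 2 (Csn3 and Btn1a1) lower (19.7%). The comparisons share their arrays and are not independent of each other.

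Other genes of milk secretion were measured beside these. Of 27 milk companion genes, 25 were on the array under their own name and 14 were tested. None was called in any comparison, with a median log2 fold change of 0.33 against virgin ventral cells and 0.09 against 16 dpc dorsal cells, beside -0.03 for all probe sets in each. The brightest probe sets of 8 of them were not present on any array, among them that of Lalba (α-lactalbumin, the milk protein that directs lactose synthesis), Csn1s2b and Lpo (lactoperoxidase). The 3 of highest signal were the water and glycerol channel Aqp3, the galactosyltransferase B4galt1 and fatty acid synthase Fasn, which read 4007 and 3462, 3171 and 3375, and 2993 and 2308 on the 16 dpc ventral arrays. Their log2 fold changes over virgin ventral cells were 0.55, 0.19 and -0.04.

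Of 19 genes of lactogenic control, 17 had a probe set of their own and 15 were tested, with 0 called in any comparison. Prlr, the prolactin receptor, had no probe set naming it alone. The list's median log2 fold change was 0.32 against virgin ventral cells and 0.20 against 16 dpc dorsal cells, and 10 of the 15 had the higher mean in 16 dpc ventral cells in each. The 3 of highest signal, the transcription factors Gata3 and Cebpb and the ligand Wnt4, had log2 fold changes over virgin ventral cells of -0.36, -0.27 and 0.37.

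Other members of this list, picked after their values were seen, lay further apart. Socs2, a feedback inhibitor of cytokine signalling that STAT5 induces, read 106 and 183 in virgin ventral cells, 736 and 587 in 16 dpc dorsal cells and 939 and 1003 in 16 dpc ventral cells. Its log2 fold change over virgin ventral cells was 2.80 ± 0.30 (SE) in 16 dpc ventral cells, with limma's adjusted p = 0.122, and 2.24 ± 0.30 in 16 dpc dorsal cells, with adjusted p = 0.338. Cish, another such inhibitor, read 1283 and 1563, then 2403 and 2830.01, then 2598 and 3582, a log2 fold change of 1.11 ± 0.21 for 16 dpc ventral over virgin ventral cells (adjusted p = 0.319). For both genes the pregnant groups were above the virgin group on every array. Foxa1, a partner of the oestrogen receptor, was present in virgin ventral cells (77.4 and 137) and absent on the 4 other arrays, at 4.61 to 22.8.

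Stat5a and 7 more genes were plotted after their values had been seen. Stat5a was present on all arrays, at 979 and 895 for virgin ventral, 1073 and 1028 for 16 dpc dorsal and 1173 and 1510.3 in 16 dpc ventral cells, and read higher on the second 16 dpc ventral array. Wfdc18, a whey acidic protein relative of mammary gland, had the shape of Csn3: 325 and 533 in virgin ventral cells, 19.3 and 142 (both absent) in 16 dpc dorsal cells and 1509.7 and 239.9 in 16 dpc ventral cells, the first 6.29-fold above the second. Plin2, which coats lipid droplets, read 1218 and 1672, then 2800 and 1469, then 2969.97 and 1283, so that replicate 1 was the higher in both pregnant groups.

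**Figure D4:**
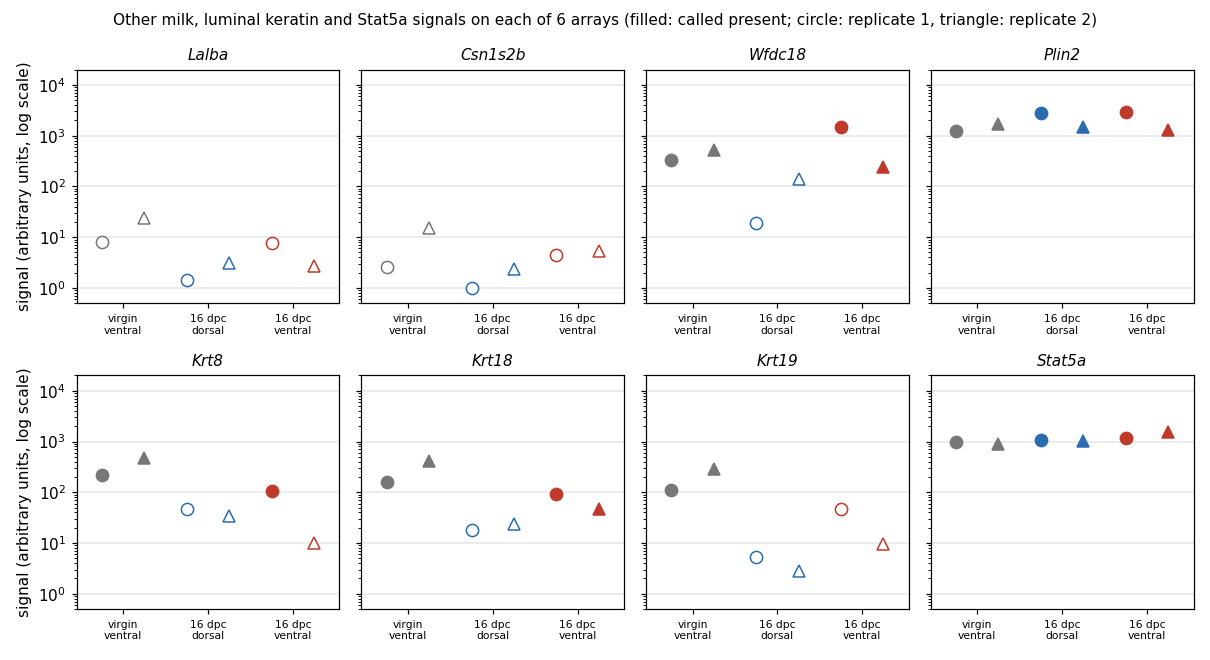
Signal (arbitrary units, log scale) of 8 further genes on each of the 6 arrays, with symbols filled for present calls, circles for replicate 1 and triangles for replicate 2. Lalba and Csn1s2b are open on every array, Wfdc18 peaks at 1509.7 on the first 16 dpc ventral array, and Krt8, Krt18 and Krt19 are highest in virgin ventral cells.

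Markers of other cells that the sort could hold were set beside these results. For luminal epithelium, 8 and 9 of 14 genes were present on the virgin ventral arrays, 6 and 5 on the 16 dpc dorsal arrays and 8 and 5 on the 16 dpc ventral arrays, and their summed signal was 24969 to 29187, 22910.3 to 30894, and 22157 to 22551. Most of that sum was Cdh1, Epcam and Cldn4, which keratinocytes also make. The simple-epithelium keratin Krt8 read 219.7 and 474 in virgin ventral cells, 47.7 and 34.3 (both absent) in 16 dpc dorsal cells, and 104 (present) and 9.98 (absent) in 16 dpc ventral cells, where it was at least 10.4-fold higher on the first array. Krt19 was present in virgin ventral cells only (110.1 and 282), and the luminal markers Cldn3, Kit, Aldh1a3 and Cited1 were not present on any array. Krt18 read 161 and 413 in virgin ventral cells, 17.8 (marginal) and 24.2 (absent) in 16 dpc dorsal cells and 94.3 and 47.6 in 16 dpc ventral cells. Lcn2, named outside the rule of the 3 of highest signal, was at least 16.6-fold higher on the first 16 dpc ventral array, at 126 against 4.55 (absent). It was also present on the second virgin ventral array, at 98.9. Between the 16 dpc ventral replicates the ratio was 0.908 for Krt7, 0.914 for Cdh1, 1.2 for Epcam, 1.96 for Cldn4 and 1.98 for Krt18. The median log2 fold change of the 8 luminal genes tested was -1.09 over virgin ventral cells and -0.17 over 16 dpc dorsal cells, and the median ratio of the 16 dpc ventral replicates over the list was 1.55.

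Among myoepithelial and smooth muscle markers, Myh11, Cnn1 and Actg2 were not present on any array, and 3 of 7 (the list holds Acta2, Oxtr and Mylk) were present on each 16 dpc array, with summed signals of 661 to 1789 for virgin ventral, 892 to 1500.2 for 16 dpc dorsal and 912 to 1480.3 for 16 dpc ventral cells. In 16 dpc ventral cells the ratio of replicate 1 to replicate 2 was 4.2 for Oxtr, 0.81 for Acta2 and 1.63 for Mylk. In 16 dpc dorsal cells it was 3.17, 0.622 and 0.722. The 5 sebaceous gland markers measured, Scd1, Far2 and Elovl3 among them, had a median ratio of replicate 1 to replicate 2 of 1.70 (16 dpc dorsal) and 2.37 (16 dpc ventral). Their summed signal was 11890.4 to 11948 for virgin ventral, 7009 to 12116 for 16 dpc dorsal and 9175 to 13741 for 16 dpc ventral cells. Most of that sum was Scd1, at 12121 and 8620 on the 16 dpc ventral arrays. Its ratio between these was 1.41, beside 2.37 for Elovl3, 3.34 for Far2 and at least 5.1 for Mc5r, and Mogat1 was not present on any array. The adipocyte markers Adipoq, Plin4, Lep and Cidec were not present on any array, with 1 or 2 of 6 (the list holds Fabp4 and Adig) present per array and summed signals of 169 to 392 over the 6 arrays. The part of these cells in the milk gene signals was not tested.

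The remaining marker lists were checked in the same way. Langerhans cell and macrophage genes (H2-Aa, Csf1r and Cd74 among them) were present in 6 and 5 of 8 on the virgin ventral arrays, 8 and 5 on the 16 dpc dorsal arrays and 7 and 7 on the 16 dpc ventral arrays, with summed signals of 1784 to 3055, 4693 to 5331 and 4479 to 5823. Macrophages also make Mfge8, and their part in its signal was not tested. Endothelial genes (such as Kdr, Tek and Selp) were present in at most 1 of 7, Merkel cell genes (Piezo2, Isl1, Atoh1) in at most 1 of 6 and fibroblast genes (Col1a2, Dcn, Col3a1) in at most 2 of 6 on any array, with summed signals of 167 to 324, 141 to 289 and 160.3 to 437. None of the genes tested in any of these lists was called in any comparison.

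The genes most like the milk profile were found by Pearson's r over the 6 arrays. The profile was the mean log2 signal of the brightest probe sets of Csn1s1, Csn1s2a, Csn2, Csn3, Wap and Glycam1. Signals under the lowest present signal of their array were first raised to it, here and for the genes compared. The profile was 5.57 and 4.23 for virgin ventral cells, 5.79 and 6.54 for 16 dpc dorsal cells and 10.08 and 7.44 for 16 dpc ventral cells. Its own members correlated with it at 0.995 (Csn1s1), 0.989 and 0.975 (Csn1s2a), 0.979 and 0.945 (Csn2), 0.966 (Glycam1) and 0.658 (Csn3), while the dim Csn1s2a probe sets 1436488_at and 1438694_at gave 0.444 each and Wap varied too little over the arrays to be given a value. Btn1a1 and Elf5, which are not in the profile, gave 0.528 and 0.423. Genes outside the set were sought among 2699 probe sets that varied by at least 2 log2 units after that raising, leaving out predicted or clone-type names. The values of dim genes therefore depend on it. The nearest were Lyzl6 (0.977), Aspn (0.953), Siglecf (0.941), Elavl2 (0.938), Abcg2 (0.915), Serpinb3a (0.907), Col19a1 (0.897), Myom2 (0.896), Ttr (0.893) and Cd244a (0.892). All points share the same 6 arrays, and the range is set mainly by the first 16 dpc ventral array.

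Abcg2, a membrane transporter that in lactation moves riboflavin and drugs into milk, was present on all 6 arrays. It read 806 and 625 on the virgin ventral arrays, 1319 and 1181 on the 16 dpc dorsal arrays and 2548 and 2141 on the 16 dpc ventral arrays, so the groups did not overlap and the replicates lay close, as for Xdh. Aspn (asporin, a matrix proteoglycan) and Col19a1 (a collagen) were also present on all arrays, at 116 and 42.7 and at 304 and 191 in 16 dpc ventral cells. Lyzl6, Siglecf, Elavl2, Myom2 and Ttr were present only on the first 16 dpc ventral array, at 30.2 to 34.8, and Cd244a on both arrays of that group, at 36.0 and 31.0. Serpinb3a read 191 and 118 there.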

How the data were processed

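RNA of FACS-sorted α6-integrin-positive cells was hybridised to 6 Affymetrix arrays (3 groups of 2, from the labels; headers name a slightly different gestation day). Skin had been cleared of fat and digested in cold trypsin. The deposited values are linear signal intensity and a detection call per probe set, made by the authors with Affymetrix Expression Console version 1 (per the submitters' processing notes) and scaled to a common trimmed mean. The genome build was not given in sources used here. Signals under 1 were set to 1, log2 was taken, and 23017 probe sets were tested that both arrays of 1 or more groups called present, using limma 3.58.1 (lmFit, eBayes with trend) in R 4.3.3, on all 6 arrays (3 residual degrees of freedom), two-sided, at a Benjamini-Hochberg adjusted p of 0.05 over all of them. The code was tested on simulated data. Folds are differences of mean log2 signals turned to a linear scale. Signals under the lowest present signal of their array were raised to it for the milk profile. The same was done for counts of 4-fold differences, of the highest array and of arrays without overlap. Gene names came from the platform annotation (34945 probe sets name 1 gene, 932 several). Same-numbered arrays share a prefix in the column headers, so folds are also given within replicate numbers. Deviations of same-numbered virgin and 16 dpc ventral arrays correlated at only -0.02, so pairing these 2 groups by number is arbitrary. All members were named, with the 3 genes of highest signal of each other list and the 10 genes nearest the milk profile after predicted or clone-type names were left out. The members and lists were chosen with earlier results of these data known. Alternatives covered filters, scaling, floor (16), variance model, probe set choice, a replicate block and leaving out each array.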

Additional observations from a re-analysis of the deposited data

How the results depend on the processing

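No milk probe set was called in any comparison under any of 16 settings, where the lowest adjusted p of limma was 0.0723 (Xdh over virgin ventral cells, brightest probe set of a gene). Of 372 refitted milk fold changes 369 kept their direction, though not their size, and 3 turned. The latter were all Mfge8 in 16 dpc dorsal over virgin ventral cells, whose log2 fold change of -0.07 became 0.11 with median centring, and lay between -0.36 and 0.22 on leaving out each array, being above 0 without virgin ventral replicate 2 (0.22) and without 16 dpc dorsal replicate 2 (0.07).

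Counts of all probe sets called moved more. For 16 dpc ventral over virgin ventral cells the count of 0 became 3 with a replicate block, 4 with median centring, 22 with the brightest probe set of a gene, 5 with the mean of a gene's probe sets, and 0 to 1 on leaving out each array in turn (1 without 16 dpc dorsal replicate 1). For 16 dpc ventral over 16 dpc dorsal cells the count of 1 became 6 with the replicate block, 6 with median centring, 9 with the brightest probe set, 0 with the mean of probe sets, with probe sets present on all 6 arrays or without a variance trend, and 0 to 3 on leaving out each array (3 and 2 without 16 dpc dorsal replicates 1 and 2, and 0 without any of the other arrays). For 16 dpc dorsal over virgin ventral cells the count of 0 became 2 with median centring and 0 to 1 on leaving out each array (1 without 16 dpc dorsal replicate 1). The cause of these moves was not tested. With an array left out, the lone array of its group was assumed to vary like the others. Median centring moved the median log2 fold change of all probe sets from -0.03 to 0.18 (16 dpc ventral over virgin ventral).

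The 8 milk probe sets over 4-fold apart between the 16 dpc ventral arrays became 0 among probe sets present on all 6 arrays, since only Xdh and Mfge8 remain there. With the replicate block, Xdh over virgin ventral cells had an adjusted p of 0.11 and Csn1s2a of 0.134 (1436170_a_at). Deviations of same-numbered arrays from their group means correlated at -0.01 and -0.02 (virgin ventral with 16 dpc dorsal and with 16 dpc ventral) and at 0.54 (16 dpc dorsal with 16 dpc ventral) over 23017 probe sets. Since only the pregnant groups' same-numbered arrays deviated together, and the labels give no shared origin, the reported values are without a block.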
